A study of Mus musculus with 18 samples.

Results

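The collagen chains are the genes whose symbol has the form Col, a number, a and a number, each gene encoding 1 alpha chain. They numbered 42 of the 18193 genes with a single-symbol probe set on the array, and each was represented by its probe set with the highest mean over 18 arrays. Testing required a signal above the 40th percentile of the same array on 3 or more arrays, and 33 of the 42 chains met this. By class, 8 of 11 fibrillar chains, 6 of 6 collagen IV chains, 3 of 5 collagen VI chains, 7 of 9 FACITs (fibril-associated chains with interrupted triple helices), 2 of 3 short-chain network chains, both multiplexins, 4 of 4 transmembrane chains and 1 of 2 remaining chains passed. The 9 chains that did not pass were Col11a1, Col11a2, Col24a1, Col6a4, Col6a5, Col9a2, Col19a1, Col10a1 and Col26a1. They lay above the percentile on 0 arrays, except Col6a4 on 1, and were not tested.

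RNA of the right lung lobe came from 18 female mice of the B6C3F1 hybrid strain, which is used in rodent cancer bioassays. They formed 6 groups of 3 animals, each animal on its own array. The mice were dosed for 13 weeks and were 18 weeks old when sampled. In 3 groups the animals received a chemical in feed 7 days a week, namely 1,5-naphthalenediamine (NDA, 2000 ppm), N-(1-naphthyl)ethylenediamine dihydrochloride (NEDD, 2000 ppm) and pentachloronitrobenzene (PCNB, 8187 ppm), against feed controls given no chemical. A further group received 2,3-benzofuran dissolved in corn oil by gavage, 240 mg/kg on 5 days a week, against gavage controls given the oil alone. The labels class NDA and benzofuran as positive and NEDD and PCNB as negative for lung carcinogenicity, a class that for the series means the outcome of 2-year bioassays and not of the lungs sampled here.

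Collagens are built from 3 alpha chains wound into a triple helix. The fibrillar chains, led in lung by collagen I (Col1a1 and Col1a2) and collagen III (Col3a1), form the tensile fibres of airway walls, vessel walls and alveolar septa, and are made mainly by fibroblasts and smooth muscle cells. Collagen IV forms the sheet-like network of basement membranes, with Col4a1 and Col4a2 in nearly all of them and the Col4a3, Col4a4 and Col4a5 chains in those of the alveolus and the kidney glomerulus. Collagen VI (Col6a1, Col6a2 and Col6a3) forms beaded filaments that link cells to the surrounding fibres, FACITs such as Col12a1 and Col14a1 sit on the surface of fibrils, and transmembrane collagens such as Col17a1 and Col23a1 are anchored in the cell membrane.

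Promoter windows are shown for the called chains that had one, Col1a2, Col3a1 and Col23a1, and for Col4a1 and Col4a2, a head-to-head pair that shares its start region. Each window runs from 250 bases before to 50 bases after a start site in RefSeq (GRCm38.p6), written 5' to 3' on the gene's own strand. That site is the outer end of the annotated gene for Col1a2, Col3a1 and Col4a2, and lies 63 bases inside it for Col4a1 and 241 bases inside it for Col23a1. Capitals mark the CCAAT box (CCAAT), the TATA box (TATAAA) and the GC box (GGGCGG) on either strand, a motif on the other strand being read as its reverse complement. The Col1a2 window lies on the plus strand at chr6:4505368-4505667, Col3a1 on the plus strand at chr1:45311288-45311587, Col4a1 on the minus strand at chr8:11312777-11313076, Col4a2 on the plus strand at chr8:11312555-11312854 and Col23a1 on the plus strand at chr11:51289670-51289969.
Col1a2: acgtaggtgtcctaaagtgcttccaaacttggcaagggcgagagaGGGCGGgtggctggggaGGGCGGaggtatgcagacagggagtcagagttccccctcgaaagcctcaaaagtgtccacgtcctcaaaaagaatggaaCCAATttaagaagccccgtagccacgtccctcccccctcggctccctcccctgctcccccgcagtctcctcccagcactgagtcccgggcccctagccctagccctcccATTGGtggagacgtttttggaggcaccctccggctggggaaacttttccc
Col3a1: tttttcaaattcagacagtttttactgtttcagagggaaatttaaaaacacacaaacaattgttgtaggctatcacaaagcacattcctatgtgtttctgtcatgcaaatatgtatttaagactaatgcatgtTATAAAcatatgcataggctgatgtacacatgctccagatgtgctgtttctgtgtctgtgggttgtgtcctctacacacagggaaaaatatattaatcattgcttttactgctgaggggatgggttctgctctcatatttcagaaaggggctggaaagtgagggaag
Col4a1: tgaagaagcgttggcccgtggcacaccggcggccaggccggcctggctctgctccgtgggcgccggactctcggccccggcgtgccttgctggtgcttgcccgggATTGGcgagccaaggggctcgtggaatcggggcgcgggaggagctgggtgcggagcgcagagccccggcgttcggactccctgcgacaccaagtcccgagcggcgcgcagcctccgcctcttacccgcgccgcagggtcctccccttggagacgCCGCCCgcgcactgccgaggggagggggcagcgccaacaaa
Col4a2: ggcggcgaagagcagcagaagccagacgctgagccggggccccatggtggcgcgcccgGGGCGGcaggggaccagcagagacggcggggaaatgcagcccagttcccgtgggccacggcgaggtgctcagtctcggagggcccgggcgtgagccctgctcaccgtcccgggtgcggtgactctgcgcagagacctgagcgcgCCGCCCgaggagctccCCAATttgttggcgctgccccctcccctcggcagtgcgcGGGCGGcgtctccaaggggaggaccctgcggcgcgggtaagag
Col23a1: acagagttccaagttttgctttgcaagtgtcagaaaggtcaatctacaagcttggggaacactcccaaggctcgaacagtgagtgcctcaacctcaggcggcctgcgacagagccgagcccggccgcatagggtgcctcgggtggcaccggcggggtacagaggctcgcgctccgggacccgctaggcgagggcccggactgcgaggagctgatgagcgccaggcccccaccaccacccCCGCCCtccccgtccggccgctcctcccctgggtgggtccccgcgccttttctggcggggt
The Col4a1 and Col4a2 windows overlap by 78 bases. Of the 42 members, 33 had a window, 36 windows in all. The CCAAT box stood in 36.1% of the member windows and in 37.4% of all 32851 windows, the TATA box in 13.9% and 13.6%, and the GC box in 61.1% and 35.7%. Of the windows printed, that of Col3a1 alone held a TATA box, those of Col1a2, Col4a1 and Col4a2 held a CCAAT box, and all but that of Col3a1 held a GC box. These are matches of letters alone, and their function was not tested. The TATAAA of Col3a1 lay at -117 to -112 from the start site, and 1 CCAAT match of Col1a2 at 0 to 4.

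Unless given as a sum or a mean of probe sets, values are log2 signals of 1 probe set. A difference of 1 stands for a factor of 2 (base 2 judged from the range of the values). Levels of single genes are compared between arrays and not between probe sets. Summed signals add several probe sets, so those of highest signal weigh most in them. The array medians lay between 5.678 and 5.803. Array benzofuran 10 stood apart from the other 17: its actin 3' minus 5' signal, a measure of how far RNA has lost its 5' end, was 0.906 against 0.333 to 0.726 elsewhere, and its score on the first principal component was 46.58 against -11.825 to 7.806. Results on benzofuran therefore include values without it, and without it 24 of the 33 tested chains moved over 1.5 times closer to 0 or changed sign in the benzofuran comparison. The actin measure also differed between feed groups. In feed controls it was 0.58 to 0.726, above all NDA (0.333 to 0.432) and NEDD (0.35 to 0.53) arrays. PCNB arrays lay at 0.352 to 0.581. The NDA and NEDD lungs therefore differed from their controls in this measure as well as in treatment. The RNA integrity number lay between 8.3 and 9.4 in the 15 animals for which the labels give it, and was 8.9 for benzofuran 10. The lung label was checked on 6 lung genes (among them Sftpc and Scgb1a1), whose summed log2 signal was 16.32 to 16.51 on every array. A call means an adjusted p under 0.05 from limma, with Benjamini-Hochberg over the 13434 genes tested.

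Among the 33 tested chains, Col1a1 varied most over the 18 arrays (SD 0.392) and Col5a3, a minor collagen V chain, least (SD 0.128). The first place of Col1a1 rested largely on benzofuran 10, at 8.03, while all other arrays lay between 9.09 and 9.94. In benzofuran lungs 2 of 33 chains fell, where 1.73% of all tested genes were called, 1.56% higher and 0.171% lower. In NDA lungs 1 chain fell, where 1.37% of all tested genes were called, 1.12% higher and 0.253% lower. No chain passed the test in NEDD or PCNB lungs, where 0.0223% and 0.0149% of all tested genes were called, and none rose in any of the 4 treatments.

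**Figure D1:**
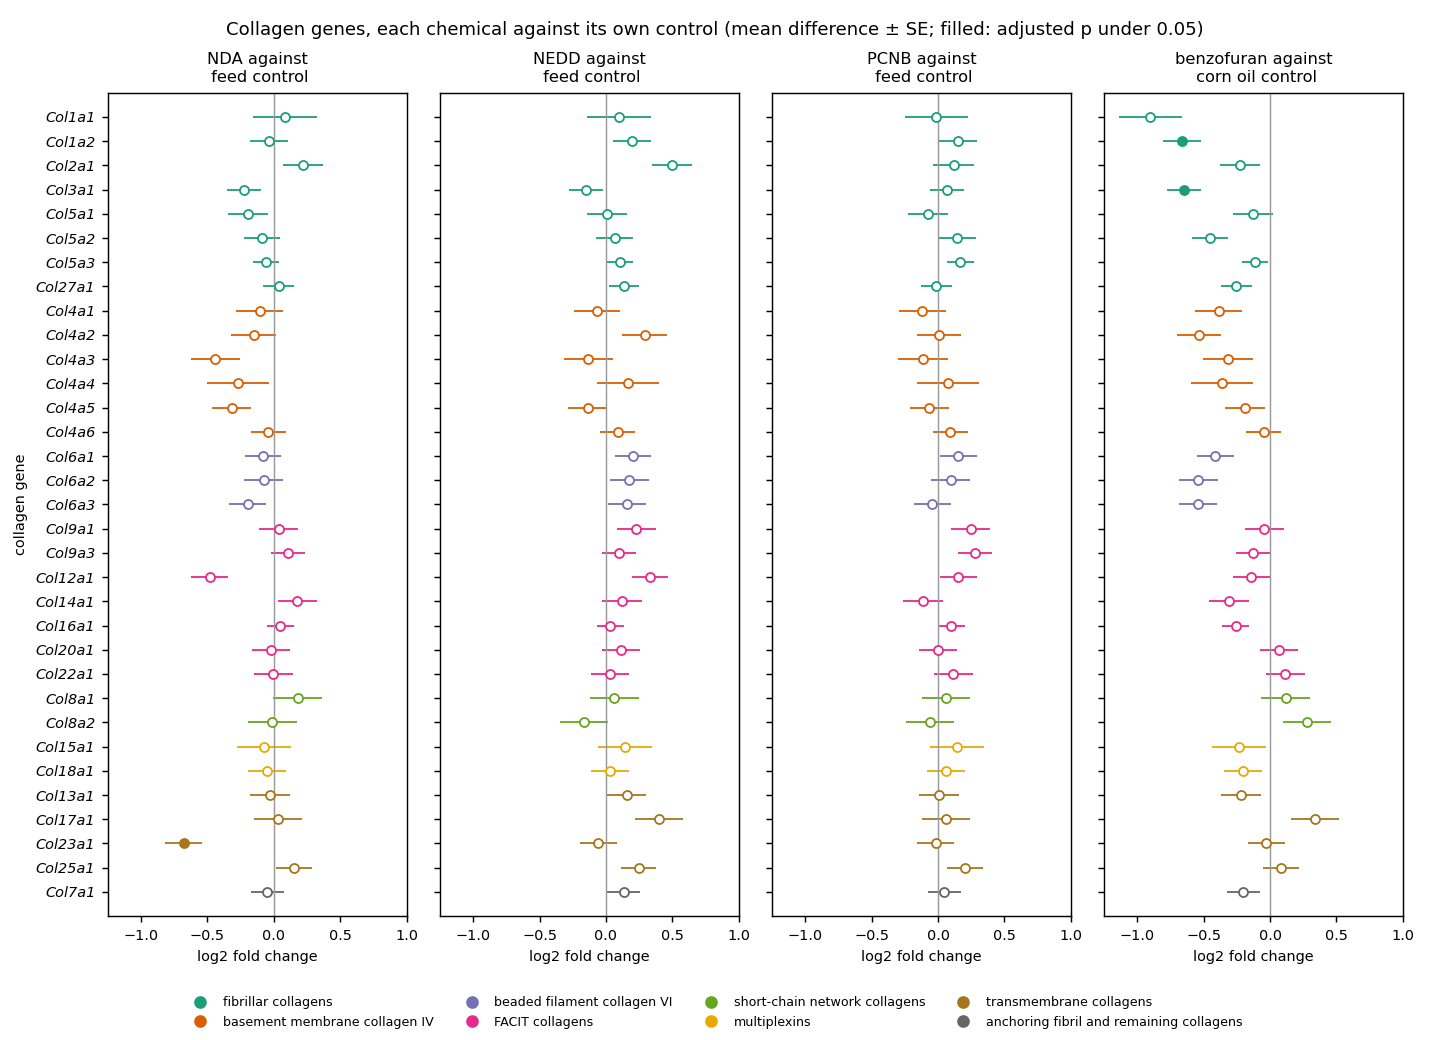
Log2 fold change of each of the 33 tested collagen genes (points, with SE bars) in NDA, NEDD and PCNB lungs against the feed control and in benzofuran lungs against the corn oil control, coloured by class. Filled points have an adjusted p under 0.05: Col23a1 in NDA lungs, and Col1a2 and Col3a1 in benzofuran lungs.

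In benzofuran lungs the transcripts of Col3a1 and Col1a2 fell relative to corn oil control lungs. Col3a1, the sole chain of collagen III, had log2 signals of 11.53, 11.51 and 11.25 in benzofuran animals 6, 8 and 10, against 12.24, 11.99 and 12.00 in corn oil control animals 22, 24 and 25. The groups did not overlap, and animal 10 was the lowest by a small margin. Col3a1 averaged 11.43 ± 0.15 in benzofuran lungs and 12.08 ± 0.15 in corn oil control lungs (SD, n = 3 each), a log2 fold change of -0.65 ± 0.13 (SE, adjusted p = 0.0156), or 1.57-fold lower. Col1a2, which pairs with Col1a1 in collagen I, had 10.95, 11.08 and 10.40 in benzofuran animals 6, 8 and 10, against 11.41, 11.46 and 11.56 in corn oil control animals 22, 24 and 25. All 3 benzofuran animals lay below all 3 controls, with animal 10 well below animals 6 and 8. The log2 fold change of Col1a2 was -0.66 ± 0.14 (adjusted p = 0.0224), or 1.58-fold lower. Both calls were lost when only the 6 arrays of the 2 groups were fitted (adjusted p = 0.333 for Col3a1 and 0.456 for Col1a2). That fit called 5 of the 13434 tested genes, 0 of them lower, against 233 and 23 in the fit to all arrays. The loss was therefore not particular to these 2 chains. A second probe set of Col3a1 gave -0.53 (adjusted p = 0.0872). The other probe sets of Col1a2 disagreed in sign, one giving -0.42 (adjusted p = 0.107) and one of low signal (mean 3.55) 0.06 (adjusted p = 0.904), and the mean of all 3 gave -0.34 (adjusted p = 0.172). In whole lung RNA, fewer cells of a type and less RNA per cell cannot be told apart.

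Col1a1, the other collagen I chain, had the lowest log2 fold change of all tested chains in benzofuran lungs but did not pass the test. It had 9.12, 9.35 and 8.03 in benzofuran animals 6, 8 and 10, against 9.69, 9.94 and 9.57 in corn oil control animals 22, 24 and 25. The groups did not overlap, yet animal 10 lay far below the other benzofuran animals, and the log2 fold change was -0.90 ± 0.24 (adjusted p = 0.0595). Col5a2, a collagen V chain that is built into collagen I fibrils and limits their width, had a log2 fold change of -0.45 ± 0.14 (adjusted p = 0.0940) with no overlap between groups. The remaining fibrillar chains tested were Col27a1 (-0.26), Col2a1, the cartilage fibril chain (-0.23), Col5a1 (-0.13) and Col5a3 (-0.11). All 8 tested fibrillar chains thus had a negative log2 fold change with a median of -0.355, whereas over all tested genes 39.8% were negative and the median was 0.053. Without benzofuran 10, 7 of the 8 were negative, with Col5a1 at 0.09, Col27a1 at -0.155 and Col5a3 at -0.064, and 44.5% of all tested genes were negative. With the feed controls as the baseline 7 of the 8 were negative too, Col2a1 standing at 0.121. With the 3 untested chains included, 9 of the 11 fibrillar members were negative and the median was -0.225. The summed log2 signal of the fibrillar chains was 12.66, 12.71 and 12.23 in benzofuran animals 6, 8 and 10 and 13.12 to 13.23 in corn oil control lungs.

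**Figure D2:**
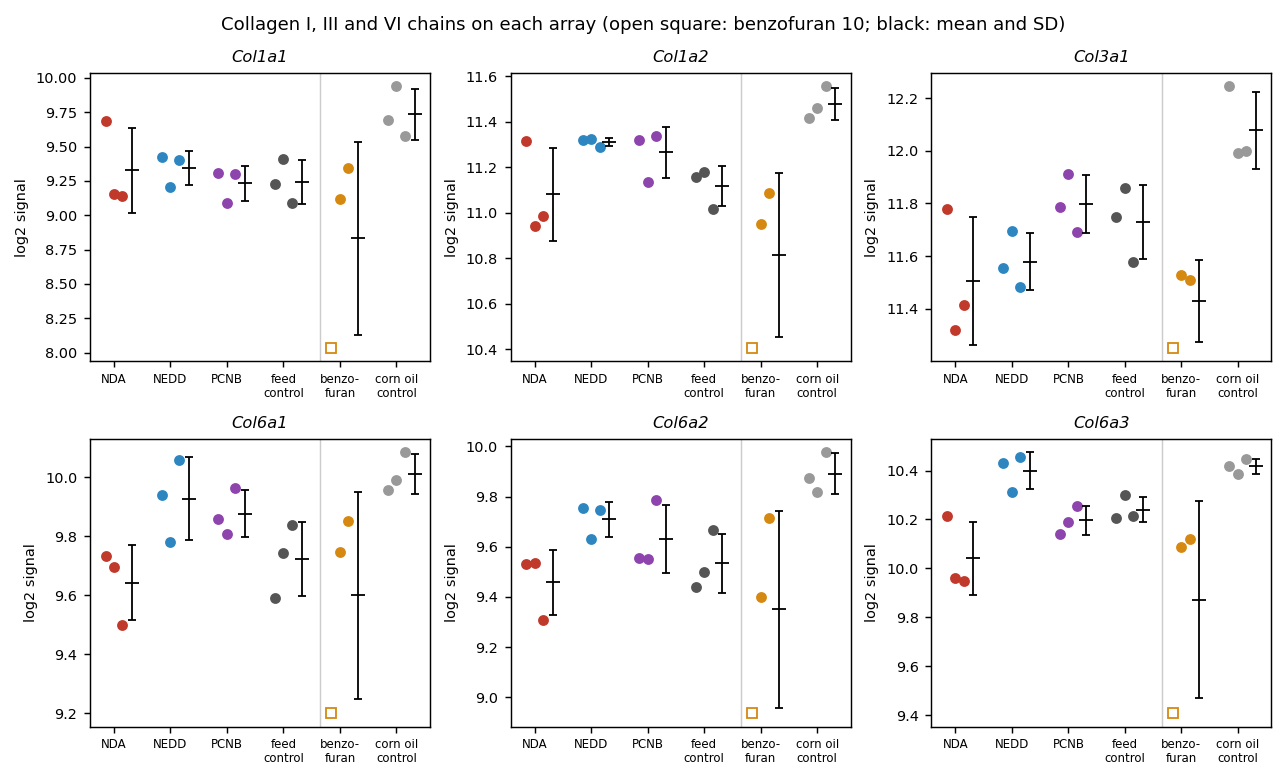
Log2 signal of the collagen I, III and VI chains (y axis) on each array by group (x axis), with each group's mean and SD in black; the open square is benzofuran 10 and the vertical line separates feed from gavage groups. All 3 benzofuran arrays lie below all 3 corn oil control arrays for each of the 6 genes, and benzofuran 10 is the lowest of the 18 arrays for each.

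The collagen VI chains had log2 fold changes of similar size in benzofuran lungs, and none passed the test. Col6a3 had 10.09, 10.12 and 9.41 in benzofuran animals 6, 8 and 10, against 10.42, 10.38 and 10.45 in corn oil control animals 22, 24 and 25 (log2 fold change -0.54 ± 0.14, adjusted p = 0.0575). Col6a2 had 9.40, 9.71 and 8.94 in benzofuran animals 6, 8 and 10, against 9.87, 9.82 and 9.98 in corn oil control animals 22, 24 and 25 (-0.54 ± 0.15, adjusted p = 0.0652). In both, the benzofuran animals lay below all controls and animal 10 was far below the others. Col6a1 had a log2 fold change of -0.41 ± 0.14 (adjusted p = 0.121), also without overlap, and of -0.213 without benzofuran 10.

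The collagen IV values in benzofuran lungs rested largely on 1 animal, and none passed the test. Col4a1 had 11.53, 11.49 and 10.58 in benzofuran animals 6, 8 and 10, against 11.58, 11.66 and 11.52 in corn oil control animals 22, 24 and 25. Animal 6 was within the control range, animal 8 just below it and animal 10 far below it. The log2 fold change over all arrays was -0.39 ± 0.18 (adjusted p = 0.235), and without benzofuran 10 it was -0.08 with a 95% interval of -0.29 to 0.14. Col4a2, its partner in the same molecule, had 10.29, 10.55 and 9.63 in benzofuran animals 6, 8 and 10, against 10.82, 10.71 and 10.56 in corn oil control animals 22, 24 and 25 (-0.54 ± 0.17, adjusted p = 0.0988), and without benzofuran 10 it was -0.28 (interval -0.53 to -0.02). The alveolar chains Col4a3 and Col4a4 had log2 fold changes of -0.32 and -0.36 over all arrays, and of -0.04 and 0.06 without benzofuran 10. Col4a5 and Col4a6 stood at -0.19 and -0.05 over all arrays, and at -0.014 and 0.101 without benzofuran 10. Without benzofuran 10 the median of the 6 collagen IV chains was -0.025, against -0.339 with it.

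**Figure D3:**
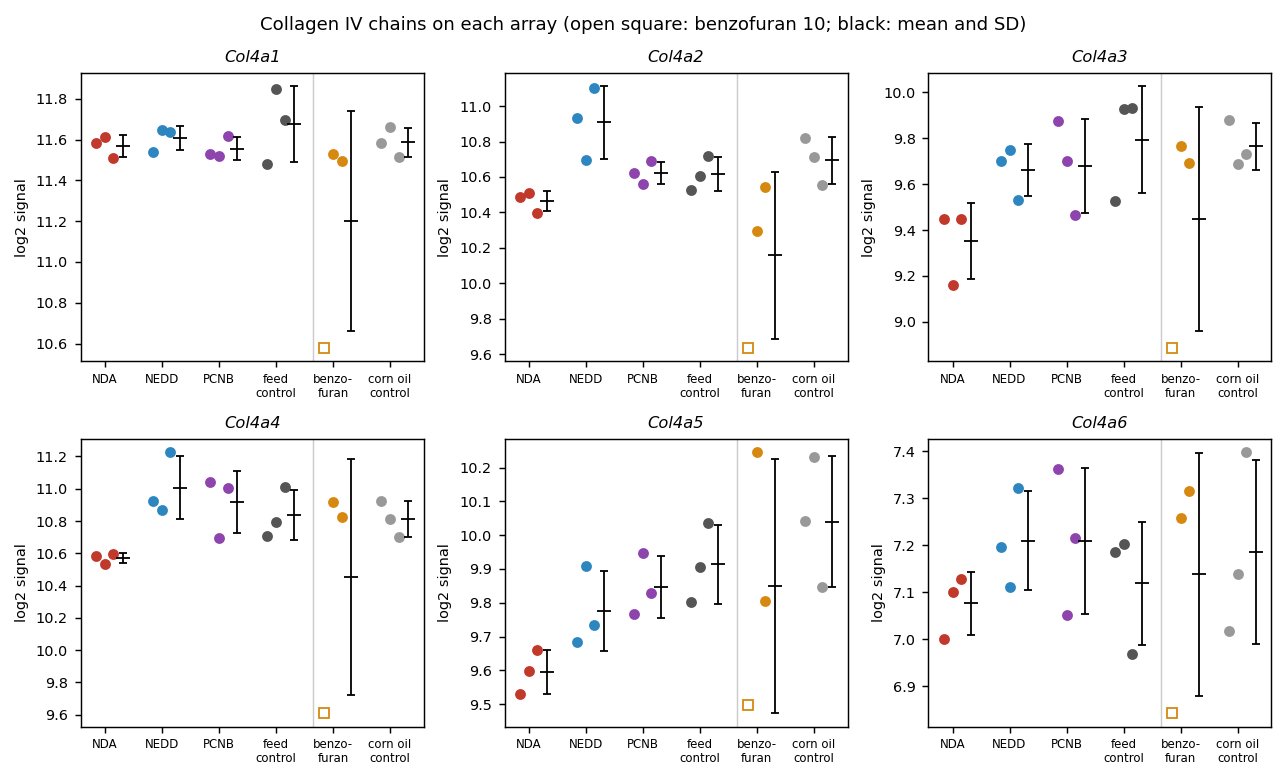
Log2 signal of the 6 collagen IV chains (y axis) on each array by group (x axis), with each group's mean and SD in black and benzofuran 10 as an open square. Benzofuran 10 lies below all other arrays for each of the 6 chains, while for Col4a1, Col4a3 and Col4a4 benzofuran 6 and 8 lie near the corn oil controls.

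Leaving out benzofuran 10 took the benzofuran comparison to 0 called chains in limma, with 7 at an unadjusted p under 0.05, all lower. In that setting 0.499% of all tested genes were called, 0.0447% lower, and 3.46% were lower at an unadjusted p under 0.05. Without it Col3a1 had a log2 fold change of -0.56 ± 0.13 (adjusted p = 0.073) and Col1a2 of -0.46 ± 0.11 (adjusted p = 0.0755), so both kept their direction and lost the call. Col1a1 stood at -0.50, Col6a2 at -0.33 and Col6a3 at -0.31 without that array. The median of the fibrillar chains was -0.295 and that of collagen VI -0.312, both further from 0 than the -0.025 of collagen IV. Leaving out corn oil control 22 also left 0 called chains, with Col3a1 at -0.57 (adjusted p = 0.104) and Col1a2 at -0.70 (adjusted p = 0.0883). Of the 13434 tested genes, 37 were then called, 1 of them lower, against 233 and 23 with all arrays. Col1a2 alone lost its call without corn oil control 24 (-0.67, adjusted p = 0.0682) or 25 (-0.63, adjusted p = 0.05). The tested genes called were 113 without control 24, 5 of them lower, and 316 without control 25, 82 of them lower. Leaving out benzofuran 8 raised the number of called chains to 8, all lower, while the share of all tested genes called was 7.85%, with 0.863% lower. Leaving out benzofuran 6 raised it to 4, all lower, with 2.23% of all tested genes called and 0.186% lower.

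**Figure D4:**
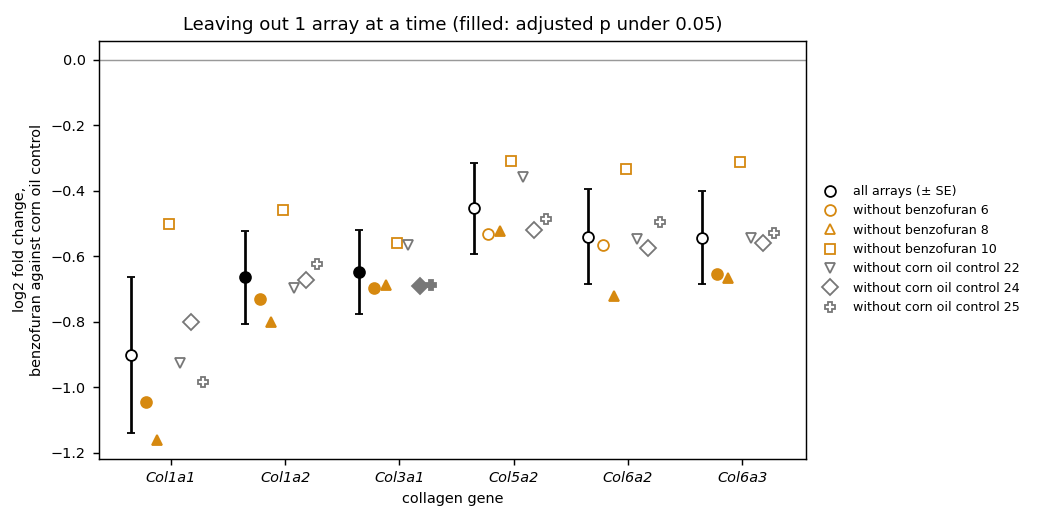
Log2 fold change between benzofuran and corn oil control lungs (y axis) for 6 collagen genes (x axis), over all arrays (black circles with SE) and leaving out 1 of the 6 arrays of the 2 groups in turn; filled symbols have an adjusted p under 0.05. Every value is below 0, and for all 6 genes the value closest to 0 is the one without benzofuran 10.

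The other chains of the benzofuran comparison were not called. Col14a1 and Col16a1, FACITs of interstitial fibrils, had log2 fold changes of -0.31 and -0.26 (-0.201 and -0.156 without benzofuran 10), and Col7a1, the anchoring fibril chain below epithelia, -0.20 (-0.261 without it). These 3 did not overlap between groups, nor did Col6a1, Col6a2, Col6a3, Col4a2 and the fibrillar Col1a1, Col1a2, Col3a1, Col5a2 and Col27a1. That made 12 of 33 chains with every benzofuran array below every control, against 4.32% of all tested genes, and without benzofuran 10 there were 13, against 9.37%. Over all arrays 11 chains had an unadjusted p under 0.05, all lower, against 4.38% of all tested genes. Col17a1, a hemidesmosome chain of epithelial cells, was the 1 chain with every benzofuran array above the controls, against 13.1% of all tested genes (0.34 ± 0.18, adjusted p = 0.317, and 0.309 without benzofuran 10). The multiplexins of basement membranes, Col15a1 and Col18a1, stood at -0.23 and -0.20, and at -0.148 and -0.064 without benzofuran 10. The short-chain network chains Col8a1 and Col8a2 stood at 0.12 and 0.28 (0.27 and 0.026 without benzofuran 10). Col13a1, Col23a1 and Col25a1, transmembrane chains, stood at -0.22, -0.03 and 0.08 over all arrays and at -0.033, 0.046 and 0.009 without that array. Col12a1, Col9a1, Col9a3, Col20a1 and Col22a1, further FACITs, lay between -0.14 and 0.12 over all arrays and between -0.166 and 0.046 without it.

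The 2 control groups, which differ in route and vehicle, were also compared for the same chains, since the corn oil controls serve as the baseline for benzofuran. No chain was called in corn oil control against feed control lungs (limma, with 5 chains at an unadjusted p under 0.05, all higher in corn oil), and 0 of all 13434 genes were called (0%, with 2.02% at an unadjusted p under 0.05, 1.06% higher). Col14a1 had a log2 fold change of 0.42, Col1a2 of 0.36, Col6a2 of 0.36, Col3a1 of 0.35, Col2a1 of 0.35 and Col6a1 of 0.29 (adjusted p = 1 for each). The value of Col1a1 was larger and its error wider, at 0.49 ± 0.24 (adjusted p = 1). Col3a1 was 12.24, 11.99 and 12.00 in corn oil controls, against 11.75, 11.86 and 11.58 in feed controls, without overlap. Col1a2 was 11.41, 11.46 and 11.56 in corn oil controls, against 11.15, 11.18 and 11.02 in feed controls, also without overlap. In all, 8 of 33 chains had every corn oil control above every feed control (Col1a1, Col1a2, Col2a1, Col3a1, Col6a1, Col6a2, Col6a3 and Col16a1), against 2.32% of all tested genes.

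This comparison shares the corn oil arrays with the benzofuran one, with the opposite sign. Set against the feed controls instead, which differ in route, benzofuran lungs had log2 fold changes of -0.30 for Col3a1 (adjusted p = 0.321), -0.30 for Col1a2 (adjusted p = 0.356) and -0.41 for Col1a1 (adjusted p = 0.451). There 0 chains were called, and 70 of all 13434 tested genes, 3 of them lower. Setting the benzofuran effect against the mean of the 3 feed chemicals' effects, each against its own control, gave -0.77 ± 0.18 for Col1a2 (adjusted p = 0.138), -0.55 for Col3a1 (0.183), -0.60 for Col6a2 (0.197), -0.96 for Col1a1 (0.212), -0.52 for Col6a3 (0.235) and -0.50 for Col6a1 (0.235). No chain passed this test of the difference (10 at an unadjusted p under 0.05, all lower), where 0.0744% of all genes were called and 2.44% were lower at an unadjusted p under 0.05. Without benzofuran 10 these values were -0.563 for Col1a2, -0.457 for Col3a1, -0.398 for Col6a2, -0.56 for Col1a1, -0.285 for Col6a3 and -0.305 for Col6a1.

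In NDA lungs 1 collagen fell, and it was not one of the fibre-forming chains. Col23a1, a transmembrane collagen whose ectodomain can be shed, had log2 signals of 7.81, 7.51 and 7.83 in NDA animals 2, 4 and 5, against 8.34, 8.43 and 8.41 in feed control animals 27, 28 and 29. The groups were well apart, and the NDA animals were also below all arrays of the other 4 groups. The log2 fold change was -0.68 ± 0.14 (adjusted p = 0.0143), or 1.60-fold lower. The call was lost without feed control 28 (-0.66, adjusted p = 0.0646), feed control 29 (-0.67, adjusted p = 0.0705) or NDA 4 (-0.57, adjusted p = 0.109). The other probe sets of Col23a1 gave -0.30 (adjusted p = 0.292) and -0.42 (adjusted p = 0.608), and the mean of all 3 gave -0.47 (adjusted p = 0.0937).

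**Figure D5:**
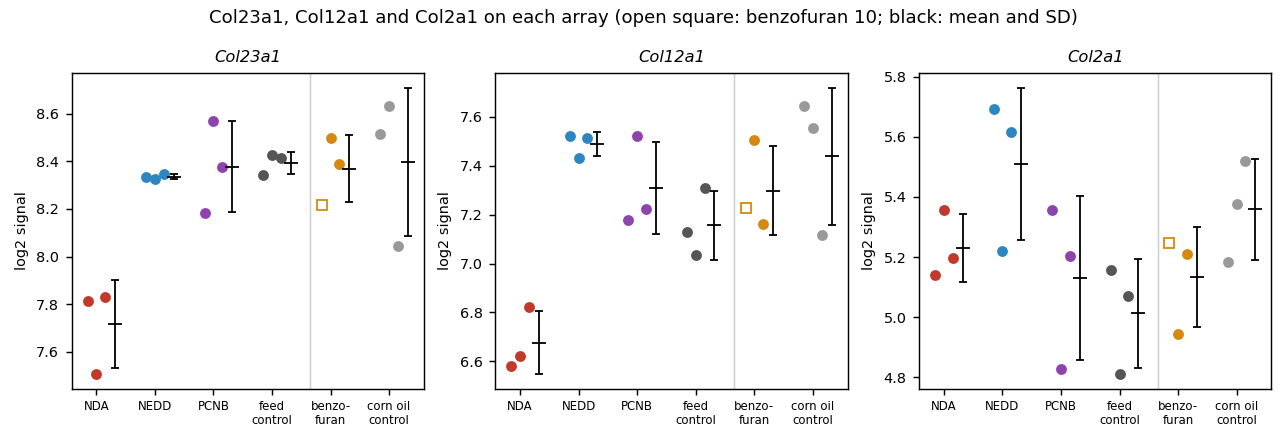
Log2 signal of Col23a1, Col12a1 and Col2a1 (y axis) on each array by group (x axis), with each group's mean and SD in black and benzofuran 10 as an open square. The 3 NDA arrays lie between 7.51 and 7.83 for Col23a1 and between 6.58 and 6.82 for Col12a1, below all other arrays in both panels.

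Col12a1, a FACIT that coats collagen I fibrils, had 6.58, 6.62 and 6.82 in NDA animals 2, 4 and 5, against 7.13, 7.03 and 7.31 in feed control animals 27, 28 and 29. The groups did not overlap, and the log2 fold change of -0.48 ± 0.14 did not pass the test (adjusted p = 0.122). Other probe sets of it gave 0.14 and 0.01 here, so the probe sets of Col12a1 disagree in sign in this comparison.

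All 6 collagen IV chains had a negative log2 fold change in NDA lungs, where 55.9% of all tested genes did, and none passed the test. Col4a3 had 9.45, 9.16 and 9.45 in NDA animals 2, 4 and 5, against 9.52, 9.93 and 9.93 in feed controls 27, 28 and 29 (-0.44 ± 0.19, adjusted p = 0.389). Col4a5 was at -0.32 (adjusted p = 0.462), Col4a4 at -0.27, Col4a2 at -0.15, Col4a1 at -0.11 and Col4a6 at -0.04. The NDA arrays lay below all feed controls for Col4a2, Col4a3, Col4a4 and Col4a5. With Col12a1 and Col23a1 that made 6 of 33 chains, against 11.6% of all tested genes. Whether these shares differ was not tested. The summed collagen IV log2 signal was 12.86 to 12.89 in NDA lungs and 12.92 to 13.17 in feed control lungs.

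Markers of the cell types that line the alveolar basement membrane were read beside these values. The 8 alveolar type 1 markers (among them Rtkn2 and Clic5) had a median log2 fold change of -0.150 and all 8 were negative, with a summed log2 signal of 15.39 to 15.46 in NDA lungs and 15.52 to 15.58 in feed control lungs. The 8 endothelial markers had a median of -0.275 and all were negative, with sums of 13.71 to 13.82 in NDA lungs and 13.93 to 14.07 in feed control lungs. No marker of either list was called, and their part in the collagen IV values was not tested.

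The fibre-forming chains of NDA lungs stayed near their controls in the mean. Col3a1 had a log2 fold change of -0.22 ± 0.13 (adjusted p = 0.601, 95% interval -0.49 to 0.05), Col1a2 of -0.04 (interval -0.33 to 0.26), Col1a1 of 0.08 (interval -0.42 to 0.59) and Col2a1 of 0.22 (adjusted p = 0.688). NDA animal 2 was above animals 4 and 5 for Col1a1, with 9.69 against 9.16 and 9.14, and likewise for Col1a2 and Col3a1. Collagen VI stood at -0.08 for Col6a1, -0.08 for Col6a2 and -0.20 for Col6a3.

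No chain passed the test in NEDD lungs in limma, and 3 chains had an unadjusted p under 0.05, all higher, against 4.21% of all tested genes. Col2a1 had 5.69, 5.22 and 5.62 in NEDD animals 12, 14 and 15, against 5.16, 4.81 and 5.07 in feed controls 27, 28 and 29 (0.50 ± 0.15, adjusted p = 0.422). The groups did not overlap, at a signal near the lower limit of what was tested. The markers of cartilage, where collagen II is the main fibril, had 4 of 10 genes above the filter. They summed to 8.67 to 8.87 in NEDD lungs and 8.62 to 9.25 in feed control lungs. Chad, the largest term of that sum, averaged 8.17 in NEDD and 8.58 in feed control lungs. The other tested markers were higher in NEDD lungs: Acan at 5.9 against 5.71, Ucma at 5.62 against 5.52 and Sox9 at 5.07 against 4.92. Col12a1 had a log2 fold change of 0.33 (adjusted p = 0.501), Col17a1 of 0.40 (0.516), Col25a1 of 0.25 (0.559), Col4a2 of 0.29 (0.568) and Col9a1 of 0.23 (0.604). Of the 33 chains 27 were positive with a median of 0.115, while over all tested genes 54.2% were negative and the median was -0.018. In all, 6 chains had every NEDD array above every feed control (Col1a2, Col2a1, Col27a1, Col6a3, Col12a1 and Col13a1), against 7.23% of all tested genes. Col3a1 and Col1a1 stood at -0.15 and 0.10.

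PCNB lungs had no called chain either (limma, with 1 chain at an unadjusted p under 0.05 and higher, against 1.71% of all tested genes). That chain was Col9a3, a cartilage FACIT, at 0.28 ± 0.13, and it was also the 1 chain without overlap, where 3.67% of all tested genes had every PCNB array above the feed controls. Next by p were Col5a3 (0.17), Col9a1 (0.25), Col25a1 (0.20), Col6a1 (0.15) and Col12a1 (0.15), each with an adjusted p of 0.9995 (limma). Col1a1, Col1a2 and Col3a1 stood at -0.01, 0.15 and 0.07, with a 95% interval of -0.20 to 0.34 for Col3a1. The 3 feed chemicals share their feed control arrays, so their values are not independent of each other.

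NDA and NEDD are both naphthalenes with nitrogen substituents, NDA with an amino group on each ring and NEDD with an aminoethylamino chain on 1 ring. They were given in feed at the same dose and for the same time, so their lungs were also compared directly, which needs no control. This was the 1 matched pair compared, and 2 chains were called lower in NDA lungs, where 2.12% of all genes were called and 0.238% called lower. Col12a1 had 6.58, 6.62 and 6.82 in NDA lungs, against 7.52, 7.43 and 7.51 in NEDD lungs, with a log2 fold change of -0.81 ± 0.14 (adjusted p = 0.00210), or 1.76-fold lower. The 2 groups were far apart relative to their spread. A second probe set of Col12a1 gave -0.32 (adjusted p = 0.457), and 2 further ones, both of low signal, gave -0.06 and -0.13. Col23a1 had 7.81, 7.51 and 7.83 in NDA lungs, against 8.33, 8.33 and 8.35 in NEDD lungs (-0.62 ± 0.14, adjusted p = 0.0227). The Col23a1 call was lost without NEDD 12 (-0.62, adjusted p = 0.086), NEDD 14 (-0.62, 0.0635), NEDD 15 (-0.61, 0.0834) or NDA 4 (-0.51, 0.148).

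Other chains did not pass in this pair, which does not show that the chemicals act alike on them. Col4a2 was at -0.44 (adjusted p = 0.242), Col6a3 at -0.36 (0.277), Col6a1 at -0.28 (0.424) and Col17a1 at -0.37 (0.434). For the main fibre chains the log2 fold change was -0.01 for Col1a1, -0.23 for Col1a2 and -0.07 for Col3a1. The NDA arrays lay below all NEDD arrays for 11 of 33 chains, against 10.8% of all tested genes.

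The tumour-positive chemicals were set against the tumour-negative ones in 1 contrast. It subtracts the averaged effects of NEDD and PCNB from those of NDA and benzofuran, every effect being relative to its own control. Here 3.49% of all tested genes were called, 0.335% lower, and 2 of 33 chains were called, both lower. Col12a1 gave -0.55 ± 0.12 (adjusted p = 0.0135) and Col1a2 gave -0.52 ± 0.12 (adjusted p = 0.0229). For Col12a1 the 4 effects were -0.48 (NDA) and -0.14 (benzofuran) against 0.33 (NEDD) and 0.15 (PCNB), and for Col1a2 they were -0.04 (NDA) and -0.66 (benzofuran) against 0.19 (NEDD) and 0.15 (PCNB). Col3a1 (-0.39, adjusted p = 0.0596), Col6a1 (-0.43, 0.0606), Col6a2 (-0.44, 0.0644), Col6a3 (-0.43, 0.0647) and Col4a2 (-0.49, 0.0705) did not pass. The Col1a2 call was lost without NDA 4 (-0.49, adjusted p = 0.0536), NDA 5 (-0.50, 0.0579) or PCNB 20 (-0.50, 0.0544). Leaving out a benzofuran array raised the number of called chains to 4 (animal 6), 7 (animal 8) or 5 (animal 10), while 3.8%, 6.46% and 3.71% of all tested genes were called. The other probe sets of Col12a1 gave -0.37 (adjusted p = 0.167), -0.12 (0.575) and 0.01 (0.975). Those of Col1a2 gave -0.45 (adjusted p = 0.0424) and 0.13 (adjusted p = 0.694), so that for each of the 2 chains 1 probe set, of mean signal 3.35 for Col12a1 and 3.55 for Col1a2, had the opposite sign. With the mean of all probe sets of a gene neither was called, Col12a1 at -0.26 (adjusted p = 0.0536) and Col1a2 at -0.28 (adjusted p = 0.212).

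Genes that fold and modify procollagen in the endoplasmic reticulum, 18 of them tested, gave no call in any of the 4 treatments. In benzofuran lungs their median log2 fold change was -0.078, and Serpinh1, the collagen chaperone HSP47, stood at -0.42 ± 0.12 (adjusted p = 0.0837) and Plod1, a lysyl hydroxylase, at -0.34 (0.129). Without benzofuran 10 the median was -0.053, Serpinh1 stood at -0.464 and Plod1 at -0.32. In NDA lungs the median was -0.058. In NEDD and PCNB lungs no gene of any of the 5 collagen pathway lists was called.

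Genes that process and cross-link procollagen numbered 8 tested. In NDA lungs Pcolce2, which enhances cleavage of the procollagen C-propeptide, fell by 0.51 on the log2 scale (SE 0.10, adjusted p = 0.00914), and its relative Pcolce stood at -0.44 (adjusted p = 0.0581). In benzofuran lungs none was called, with Lox, the cross-linking lysyl oxidase, at -0.36 and a list median of -0.152 (-0.272 and -0.057 without benzofuran 10). Among 11 tested genes of collagen breakdown, Ctsk, which encodes the collagen-degrading protease cathepsin K, rose in NDA lungs (0.57 ± 0.11, adjusted p = 0.0113), and Mmp12, macrophage elastase, stood at 0.93 (adjusted p = 0.0626). The median of the list in NDA lungs was -0.041. In benzofuran lungs no breakdown gene was called and Mmp8, neutrophil collagenase, stood at -0.71 (adjusted p = 0.106), and at -0.787 without benzofuran 10.

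The 8 collagen receptors and the 14 TGF-beta signalling genes gave no call in any treatment. In benzofuran lungs Itgb1, the beta subunit of the collagen-binding integrins, stood at -0.45 and Mrc2, an uptake receptor for collagen fragments, at -0.33, with a list median of -0.158. Without benzofuran 10 they stood at -0.109 and -0.116, and the list median was 0.081. Of the TGF-beta genes, Ccn2, a target of that pathway, stood at -0.48 (-0.506 without benzofuran 10). Smad2 (0.2), Tgfb3 (0.145) and Skil (0.065) were positive, and the other genes of that list negative. Without benzofuran 10, Skil (0.279), Tgfb3 (0.275), Smad2 (0.131), Tgfb2 (0.079), Smad7 (0.042) and Tgfbr2 (0.018) were positive, the others being negative. Of the 14, 4 had an unadjusted p under 0.05, all lower, against 4.38% of all tested genes, and 1 did without benzofuran 10, against 3.46%. Their list median was -0.145 with all arrays and -0.068 without benzofuran 10.

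Fibroblast markers other than collagens were read beside the fibrillar chains. In benzofuran lungs 0 of 12 were called and their median log2 fold change was -0.055, with Fn1, fibronectin, at -0.56 (adjusted p = 0.118) and Pdgfra at -0.48 (0.142). Pi16 (0.296), Mfap5 (0.15), Scara5 (0.137), Meox2 (0.038) and Tcf21 (0.026) were positive, and the other markers negative. Without benzofuran 10 the median was -0.084, Fn1 stood at -0.261 and Pdgfra at -0.234. In that setting Pi16 stood at 0.287, Dcn at 0.245, Scara5 at 0.21, Tcf21 at 0.04 and Mfap5 at 0.037, the others being negative. Their summed log2 signal was 13.8, 13.83 and 13.47 in benzofuran animals 6, 8 and 10 and 13.85 to 13.90 in corn oil control lungs. Smooth muscle and pericyte markers summed to 12.88, 13.02 and 13.5 in benzofuran animals 6, 8 and 10 and 12.99 to 13.27 in corn oil control lungs. Endothelial markers summed to 13.91, 13.94 and 13.48 in benzofuran animals 6, 8 and 10 and 13.79 to 14.04 in corn oil control lungs. The part of these markers in the collagen values was not tested. In NDA lungs Dpt, the matrix protein dermatopontin, fell by 0.36 on the log2 scale (adjusted p = 0.0326). Chad, a cartilage matrix gene that binds collagen, fell there by 1.60 (adjusted p = 0.000128). The median of the 12 fibroblast markers was -0.114. Of those 12, Dcn averaged 11.36 in NDA and 10.99 in feed control lungs. Scara5 (7.94 and 7.62), Pi16 (7.13 and 6.88) and Fbln1 (8.4 and 8.32) were likewise higher, and the others lower. Of the other tested cartilage markers, Sox9 (5.12 and 4.92) and Acan (5.76 and 5.71) were higher and Ucma (5.47 and 5.52) lower.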

How the data were processed

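The deposited values of the series matrix are on a log2 scale, 1 column per array (1 animal each). The base was judged from their range of 2.48 to 14.78, and how the authors summarised and normalized the probes is not given in the sources used here. Values were used as deposited. Names came from the platform annotation (34945 of 45101 probe sets with 1 symbol), and all 42 members matched RefSeq genes of GRCm38.p6 by gene identifier. Of 18193 genes, 13434 passed the filter.

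A linear model with 1 mean per group was fitted to all 18 arrays in limma 3.58.1 (R 4.3.3; lmFit, contrasts.fit, eBayes; 12 residual degrees of freedom), with Benjamini-Hochberg adjustment over 13434 genes in each of 8 comparisons. An exact permutation of 3 against 3 animals cannot go below p = 0.1. The fit was tested on simulated data. Alternatives changed the probe set, the filter, the scaling, the fit and the arrays. Summed signals add the linear values of a list's tested genes before log2. Called members, or the 6 with the smallest p, were named in each comparison, with the main lung chains. Members and gene lists were chosen with earlier results of these data known.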

Additional observations from a re-analysis of the deposited data

Results flagged for a closer look

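The difference between chemicals was itself tested for every chain, and 2 passed, where 3.49% of all tested genes were called. For Col12a1 the effects of the tumour-positive chemicals (NDA and benzofuran) and of the tumour-negative ones (NEDD and PCNB), each against its own control, differed by -0.55 (limma, adjusted p = 0.0135). For Col1a2 the same difference was -0.52 (adjusted p = 0.0229). Both calls were lost with the mean of all probe sets of the gene (adjusted p = 0.0536 for Col12a1 and 0.212 for Col1a2), and that of Col1a2 also without NDA 4, NDA 5 or PCNB 20. In the other test of a difference, the benzofuran effect minus the mean effect of the feed chemicals, 0 chains were called (limma, with 10 at an unadjusted p under 0.05).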

How the results depend on the processing

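For the 48 values of chains named by the rule, which takes the smallest p, calls changed with the setting more often than directions did. Over all 33 tested chains directions changed as well, as given below. Averaging all probe sets of a gene gave 0 called chains for NDA and 1 for benzofuran. It gave 0 for the class contrast and 1 for NDA against NEDD. Over all tested genes the calls were 180, 238, 424 and 283, against 184, 233, 469 and 285 with 1 probe set per gene. Weighting each array by its quality (benzofuran 10 at 0.12) gave 3 called chains for NDA, 1 for NEDD and 6 for benzofuran. It gave 1 for the benzofuran effect minus the mean feed effect, 10 for the class contrast and 8 for NDA against NEDD. Calls over all tested genes rose to 755 for NDA, 521 for NEDD and 1149 for benzofuran, against 184, 3 and 233 without weights. In the same order the remaining contrasts rose to 186, 1873 and 1813, against 10, 469 and 285. The actin 3' to 5' difference as a covariate gave 6 called chains for benzofuran and 6 for the class contrast. Over all tested genes it gave 734 and 676 calls, against 233 and 469 without it. A trended and robust prior gave 5 chains for the class contrast, with 490 of all tested genes called. Fitting only the 2 groups compared gave 0 chains for benzofuran, where 5 of all tested genes were called, 0 of them lower. Taking the feed controls as the baseline (chosen after seeing the data) also gave 0, where 70 were called. Leaving out 1 array at a time gave 0 to 1 called chains for NDA and 0 for NEDD, PCNB and the 2 control groups. It gave 0 to 8 for benzofuran and 0 to 3 for the benzofuran effect minus the mean feed effect. For the class contrast it gave 1 to 7, and for NDA against NEDD 1 to 5. Over all tested genes the same fits called 120 to 311 for NDA and 37 to 1054 for benzofuran. The benzofuran effect minus the mean feed effect had 5 to 252, the class contrast 300 to 868 and NDA against NEDD 168 to 584. Among the 48 values of chains named by the rule over the 8 comparisons a sign changed with another probe set of the gene, in 13 cases, and under none of the other alternatives: Col12a1 gave 0.142 and 0.013 for NDA, -0.008 for NEDD, -0.024 for PCNB and 0.007 for the class contrast, Col25a1 gave -0.089 for NEDD and -0.069 for PCNB, Col9a3 gave -0.089 and -0.046 for PCNB, and Col1a2 gave 0.056 for benzofuran, -0.016 for corn oil against feed controls, 0.044 for the benzofuran effect minus the mean feed effect and 0.131 for the class contrast. Over all 33 tested chains, 5 to 16 in each comparison changed sign when at least 1 of the arrays was left out, 9 of them for benzofuran against corn oil control, and 6 did so without benzofuran 10 (Col4a4, Col4a6, Col5a1, Col9a1, Col20a1 and Col23a1). The cause was not tested. With median centring or quantile normalization the 8 fibrillar and 6 collagen IV chains kept negative values with benzofuran. The number of called chains was 2 in each, where 304 and 189 of all tested genes were called. Median centring moved the median of all genes to 0.098 for benzofuran. No paired analysis was possible because no animal number is shared between groups. The number of arrays, 3 a group, limits the precision, and a low signal cannot be told from background.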
